A study of Rattus norvegicus with 44 samples.

Results

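The genes described here are 10 genes of secretory and duct-lining epithelia whose levels were higher in newborn rat ovaries cultured with AMH: Mmp7, Tspan1, Elf3, Plet1, S100g, Gabrp, Cyp24a1, Aqp8, Scgb1c1 and Ceacam4. They were picked for their AMH minus control difference on the arrays described below, so the AMH values are given as a description with no test. Each gene had 1 probe set, and these 10 probe sets are part of 27342 on the array, of which 15097 carry 1 gene symbol, 323 carry several and 11922 carry none. Whole ovaries of Sprague-Dawley pups on postnatal day 4 were kept in organ culture for 48 h and measured on Affymetrix Rat Gene 1.0 ST arrays. One set of 38 arrays held 14 untreated controls and 3 samples for each of 8 growth factors, namely AMH and BMP4, FGF7 and FGF2, PDGFab, KITLG, LIF and GDNF. A separate set of 6 arrays held 3 samples of CTGF and 3 controls of their own. Every growth factor was added at 50 ng/ml. Each sample was the RNA of 1 well with 2 or 3 ovaries from different pups of a litter, and the 8 growth factors share the same 14 controls. The study's text gives fewer replicates for GDNF than the 3 in the labels, and all 3 were used. The methods place controls and some of the growth factors in each run of cultures, but which sample belonged to which run is not given in the sources used here, so run and treatment cannot be told apart.

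Epithelial cells that line ducts and glands share surface proteins, ion and water channels, secreted proteins and a small group of transcription factors, and their genes are often transcribed together. The day 4 rat ovary consists mainly of oocytes, pregranulosa cells and stroma, with a surface epithelium, and it adjoins the oviduct, which forms from the Müllerian duct, and tubules of mesonephric origin. AMH (anti-Müllerian hormone) is made by granulosa cells, acts through SMAD proteins and slows the recruitment of resting follicles, and in the male embryo it causes regression of the Müllerian duct. Mmp7 (matrilysin) is a metalloproteinase secreted by glandular epithelium. Elf3 is an ETS transcription factor of epithelial cells. Tspan1 is a tetraspanin and Plet1 a surface protein anchored in the membrane by lipid. Gabrp is a GABA-A receptor subunit found outside the nervous system, and Aqp8 is a water channel. S100g (calbindin-D9k) binds calcium, and Cyp24a1 breaks down active vitamin D. Scgb1c1 is a secreted secretoglobin and Ceacam4 belongs to the carcinoembryonic antigen family of surface proteins.

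The 250 bases before the start site of Mmp7 and of Plet1 and Tspan1, the 2 genes that tracked Mmp7 most closely across the controls (below), are shown because these 3 genes moved together. They are from RefSeq on build GRCr8, and 7 of the 10 genes had an entry. Mmp7 lies on the plus strand at chr8:13132793-13133042, Plet1 on the plus strand at chr8:59738389-59738638, and Tspan1 on the minus strand at chr5:134888731-134888980. Each is written 5′ to 3′ toward its gene, and capitals mark matches on either strand to an ETS core (GGAAG), an AP-1 site (TGANTCA), a TCF/LEF site (CTTTGA) or a TATA box (TATAAA), none of which overlap here.
Mmp7: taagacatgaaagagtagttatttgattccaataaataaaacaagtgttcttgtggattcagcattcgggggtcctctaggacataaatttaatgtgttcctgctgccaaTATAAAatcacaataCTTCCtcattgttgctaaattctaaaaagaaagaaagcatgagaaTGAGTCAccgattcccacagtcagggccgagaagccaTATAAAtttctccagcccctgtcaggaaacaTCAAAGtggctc
Plet1: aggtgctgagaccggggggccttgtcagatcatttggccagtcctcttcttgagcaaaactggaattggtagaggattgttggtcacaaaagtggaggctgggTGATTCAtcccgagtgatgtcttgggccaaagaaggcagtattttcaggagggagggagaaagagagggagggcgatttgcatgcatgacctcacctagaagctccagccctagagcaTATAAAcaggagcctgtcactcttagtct
Tspan1: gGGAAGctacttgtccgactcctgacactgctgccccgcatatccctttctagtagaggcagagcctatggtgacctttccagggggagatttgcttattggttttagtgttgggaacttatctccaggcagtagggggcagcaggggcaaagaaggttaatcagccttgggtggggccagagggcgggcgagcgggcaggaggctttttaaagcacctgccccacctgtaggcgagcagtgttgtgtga
Mmp7 held all 4 motifs, with the nearer of 2 TATA matches 43 bases, the AP-1 match 80 bases and the TCF/LEF match 12 bases before the start. Plet1 held a TATA box at 29 bases and an AP-1 match at 147 bases, and Tspan1 held only an ETS core. Among the 7 genes, 3 had the ETS core, 2 an AP-1 match, 2 a TCF/LEF match and 2 a TATA box. In all 33469 windows of this length the shares were 63.3%, 6.34%, 13.9% and 12.9%. A match describes letters in this window and says nothing about which factor is bound there.

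On the log2 scale of the arrays, Mmp7 was at 8.54, 8.32 and 7.74 in the 3 AMH samples, while the 14 controls ran from 4.29 through a median of 5.22 to 7.34. All AMH samples lay above every control, and the mean of 8.20 ± 0.42 (SD, n = 3) was 2.82 higher than the control mean of 5.38 ± 0.93 (SD, n = 14), or 7.06-fold. Elf3 was at 5.91, 5.80 and 5.12 with AMH, against controls from 3.97 through 4.31 to 5.05. Tspan1 was at 6.51, 6.28 and 5.87, against 4.57, 5.02 and 5.66 for the lowest, median and highest control. These epithelial markers also did not overlap between the groups, with differences of 1.27 for Elf3 and 1.21 for Tspan1. Plet1 was at 9.11, 8.76 and 8.80 with AMH, and its controls ran from 5.15 through 6.67 to 8.97. Its mean was 2.02 higher with AMH, yet 1 control lay above 2 of the 3 AMH samples.

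Of the channel and transporter genes, Aqp8 was at 8.57, 8.29 and 8.76 with AMH, against controls from 6.84 through 7.33 to 7.78. The groups were apart by 1.20 on average, with no overlap. Gabrp was at 10.09, 9.71 and 8.69, against 5.43, 7.66 and 9.11, and AMH sample 3 fell within the controls although the mean was 2.06 higher. Among the calcium and vitamin D genes, S100g was at 9.46, 8.34 and 9.47, against 6.0, 7.13 and 8.40. Here AMH sample 2 was the one inside the control range, and the mean difference was 1.87. Cyp24a1 was at 5.12, 6.39 and 7.11, against 4.19, 4.57 and 5.33. AMH sample 1 was below the highest control, and the mean difference was 1.63.

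Scgb1c1 was at 6.66, 8.47 and 6.90 with AMH, and controls ran from 4.50 through 5.43 to 7.98. Only AMH sample 2 exceeded every control, and the mean was 1.71 higher. Ceacam4 was at 6.28, 7.40 and 5.20, against 4.34, 4.99 and 6.02, with AMH sample 3 close to the control median and a mean difference of 1.26, which was 0.71 without AMH sample 2. The 3 AMH samples thus differed among themselves in which genes were highest. Sample 1 led in Mmp7, Tspan1, Elf3, Plet1 and Gabrp. Sample 2 led in Scgb1c1 and Ceacam4, and sample 3 in Cyp24a1, Aqp8 and, by a narrow margin, S100g. In counts, 8, 8 and 6 of the 10 genes were above the highest control in AMH samples 1, 2 and 3, and 4 genes (Mmp7, Tspan1, Elf3, Aqp8) were above it in all 3 samples, which 0.135% of all probe sets were. Without controls 10 and 11, the highest ones for several of these genes, the count was 8 of 10, against 0.285% of all probe sets. Nothing is read from these shares, since the AMH contrast chose the genes. In whole-ovary RNA, more cells of a type and more RNA per cell cannot be told apart.

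**Figure D1:**
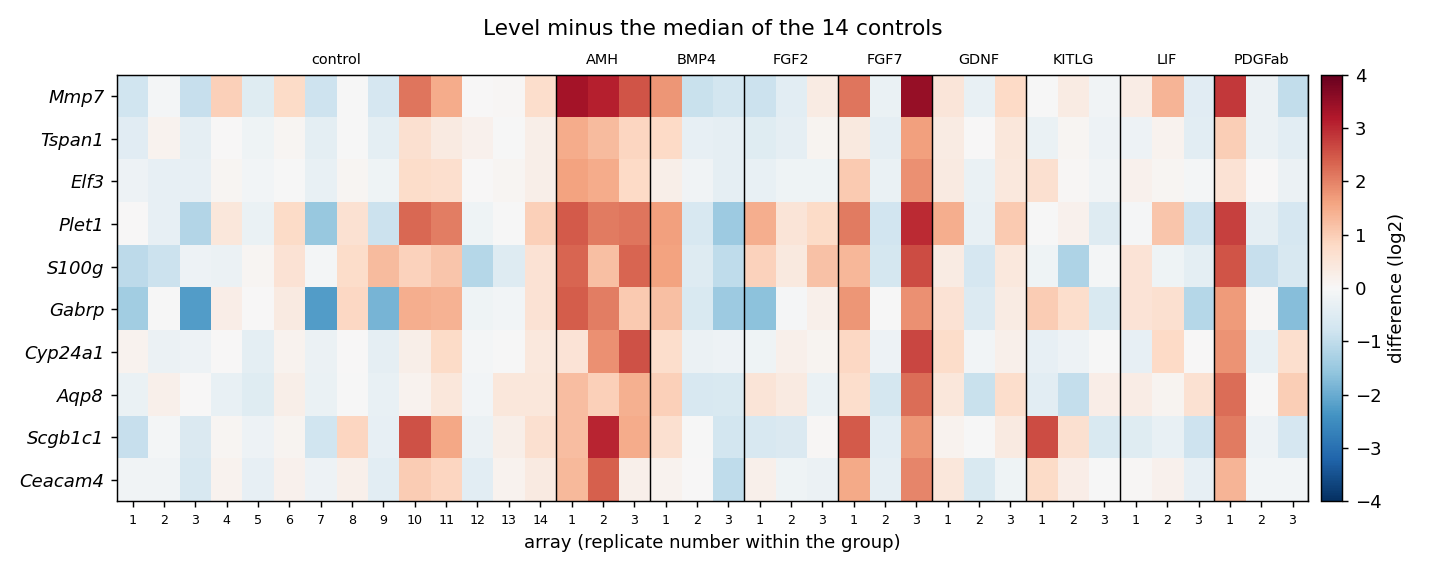
Level of each of the 10 genes (rows) on each of the 38 arrays (columns, grouped by treatment and numbered by replicate) minus the median of the 14 controls, in log2 units. The AMH columns are red throughout, and so are FGF7 samples 1 and 3, PDGFab sample 1, BMP4 sample 1, GDNF sample 1 and controls 10, 11 and 14.

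High levels of these genes were also found outside the AMH group. All 10 genes were above the control median in FGF7 samples 1 and 3, PDGFab sample 1, BMP4 sample 1 and GDNF sample 1, and in untreated controls 10, 11 and 14. By the median over the 10 genes, PDGFab sample 1 stood 1.94 above the control median and FGF7 sample 3 stood 2.08 above it, against 1.45 to 1.94 for the AMH samples. Neither FGF7 nor PDGFab was consistently high. FGF7 sample 2 was below the control median for all 10 genes, with a median difference of -0.35, and PDGFab samples 2 and 3 were above it for 2 of 10 each. The genes are therefore described by their leading members rather than as AMH genes. Arranged by group mean, Mmp7 stood at 8.20 with AMH, 7.00 with FGF7, 5.75 with PDGFab, 5.62 with LIF, 5.54 with GDNF, 5.38 in controls, 5.28 with KITLG, 5.26 with BMP4 and 4.90 with FGF2. The step from AMH to FGF7 was larger than the SD of AMH (0.42) and smaller than that of FGF7 (1.90). Below FGF7, every neighbouring pair in that order differed by less than the SD of either group.

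**Figure D2:**
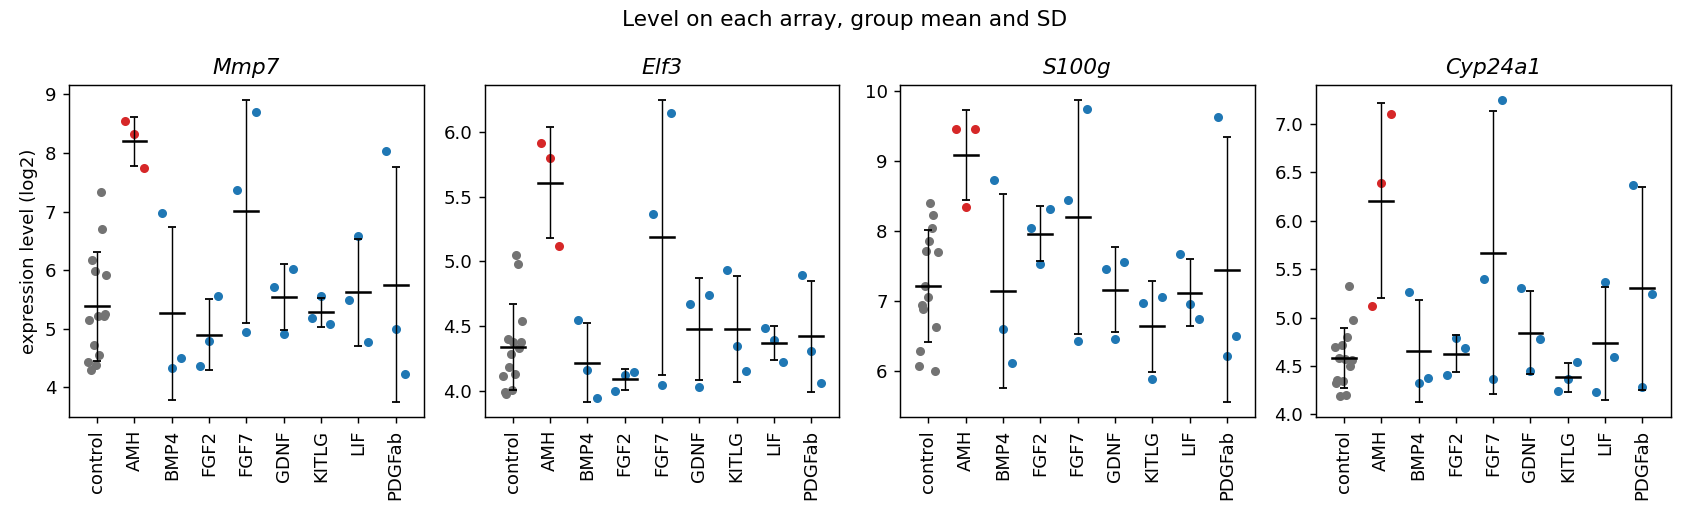
Expression level (log2) of Mmp7, Elf3, S100g and Cyp24a1 on each of the 38 arrays (points), with the mean (bar) and SD (whisker) of each group. The FGF7 samples spread from within the controls to the level of the AMH samples or above, and the PDGFab samples for Mmp7 and S100g spread as widely, with 1 Mmp7 value just below the lowest control.

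FGF7 (keratinocyte growth factor) is made by mesenchyme and acts on the receptor that epithelial cells carry. All 10 genes had higher means with FGF7, by 0.57 to 1.62 with a median of 1.03, against a median of -0.01 for all probe sets. None passed limma's test after adjustment over all probe sets, where 0.0805% of all probe sets were called, and 6 of 10 had an unadjusted p under 0.05, against 7.57% of all probe sets. The methods' t-test gave 0 adjusted and 4 unadjusted. The genes were chosen by their AMH difference from the same controls, so the FGF7 comparison is not independent of that choice. They also rose and fell together across those controls (below), so a count of genes can repeat the same few high samples. For each growth factor sharing these controls, nothing is therefore read from such counts set against the shares of all probe sets. Mmp7 was at 7.36, 4.94 and 8.70, a difference of 1.62 (SE 0.65, limma adjusted p = 0.509, exact permutation p = 0.0324 over 680 splits). Elf3 was at 5.37, 4.04 and 6.14 and differed by 0.85 (SE 0.26, limma adjusted p = 0.256, exact permutation p = 0.0265), the smallest adjusted p of the 10 genes. These 2 genes share a pattern in which samples 1 and 3 lay above every control and sample 2 lay below the control median. The permutation p-values are not adjusted for the number of genes and growth factors. Elf3 passed when FGF7 sample 2 was left out, with a difference of 1.42 and an adjusted p of 0.0203, and the other 9 genes did not. Without FGF7 sample 3 none of the 10 genes had an unadjusted p under 0.05, and the differences were 0.37 for Elf3 (limma adjusted p = 1.0), 0.77 for Mmp7, 0.030 for Tspan1 and 0.30 for Cyp24a1. Without sample 1, 2 genes had an unadjusted p under 0.05.

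Cyp24a1 was at 5.40, 4.36 and 7.25 with FGF7, a difference of 1.09 (SE 0.38, limma adjusted p = 0.368, exact permutation p = 0.0279). Ceacam4 was at 6.50, 4.64 and 6.94, a difference of 0.99 (SE 0.38, limma adjusted p = 0.457, exact permutation p = 0.0294). In both genes sample 2 was again below the control median. Tspan1 was 0.57 higher (SE 0.28, limma adjusted p = 0.653, exact permutation p = 0.0868), with sample 3 alone above every control at 6.67. Gabrp was 1.42 higher (SE 0.69, limma adjusted p = 0.658, exact permutation p = 0.0882), from 9.42, 7.66 and 9.48. Plet1, S100g and Aqp8 did not reach an unadjusted p under 0.05, with differences of 1.24, 0.99 and 0.73 and adjusted p of 0.736, 0.748 and 0.718. Aqp8 showed the widest spread, from 6.63 in sample 2, below every control, to 9.55 in sample 3, above every control. With sample 3 left out its difference was -0.01. In FGF7 9 of the 10 genes had at least 1 sample above the highest control, which 9.71% of all probe sets had. The limits given above for such counts hold here too.

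PDGFab, a growth factor for stromal cells, gave 10 higher means, by 0.08 to 1.05 with a median of 0.29, against -0.01 for all probe sets. No gene passed limma's adjusted test, by which 0.234% of all probe sets were called, and 1 of 10 had an unadjusted p under 0.05, against 9.79% of all probe sets. The methods' t-test gave 0 adjusted and 2 unadjusted. The gene with the unadjusted call was Aqp8, at 9.55, 7.30 and 8.31, a difference of 1.05 (SE 0.40, limma adjusted p = 0.32, exact permutation p = 0.0132). Cyp24a1 was at 6.38, 4.29 and 5.25, a difference of 0.72 (SE 0.38, limma adjusted p = 0.556, exact permutation p = 0.0456). Without PDGFab sample 1 these differences were 0.46 for Aqp8 and 0.19 for Cyp24a1, no gene had an unadjusted p under 0.05, and without sample 2 they were 1.59 and 1.23. For the other 6 genes named here, sample 1 alone was above every control. Mmp7 was at 8.03, 5.0 and 4.23, so that sample 1 exceeded every control and sample 3 lay below every control, and the difference of 0.37 (SE 0.65) had an adjusted p of 0.921. Plet1 was at 9.42, 6.32 and 6.0, S100g at 9.63, 6.22 and 6.50, and Gabrp at 9.36, 7.71 and 5.96. Their differences were 0.38, 0.23 and 0.24, with adjusted p of 0.929, 0.955 and 0.962. Tspan1 differed by 0.12 and Ceacam4 by 0.34, with adjusted p of 0.949 and 0.86. Without PDGFab sample 1 the differences turned to -0.77 for Mmp7, -0.71 for Plet1, -0.86 for S100g and -0.60 for Gabrp, and to -0.32 for Tspan1 and -0.15 for Ceacam4. At least 1 PDGFab sample was above the highest control for 8 of the 10 genes, against 13.3% of all probe sets. This count has the limits given for FGF7.

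BMP4 signals through receptors and SMAD proteins that it shares with AMH. The 10 genes differed by -0.36 to 0.07 with BMP4, with a median of -0.11 against 0.00 for all probe sets. No gene had an adjusted or an unadjusted p under 0.05 by limma, against 0.274% and 8.97% of all probe sets, and none did by the methods' t-test. Mmp7 was at 6.97, 4.32 and 4.49, a difference of -0.12 (SE 0.65, limma adjusted p = 0.985, exact permutation p = 0.878). S100g was at 8.73, 6.60 and 6.11, and Aqp8 at 8.30, 6.68 and 6.72. In both genes sample 1 lay above every control, and for Aqp8 the other 2 samples lay below every control. Tspan1 was at 5.80, 4.70 and 4.66. For these 3 genes the mean differences were -0.07, -0.11 and 0.05, with adjusted p of 0.988, 0.976 and 0.985. Elf3 at 3.94 and Ceacam4 at 3.96 in sample 3 were under the lowest control, and differed by -0.12 and -0.34, with adjusted p of 0.949 and 0.894. A sample above the highest control was found for 3 of 10 genes, against 11.3% of all probe sets. BMP4 thus had 1 high and 2 low samples, and its difference from AMH was not tested because AMH chose the genes.

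With FGF2, GDNF, KITLG and LIF no gene had an adjusted or an unadjusted p under 0.05 by limma or by the methods' t-test. The shares of all probe sets called by limma after adjustment were 0.94% with FGF2, 1.89% with GDNF, 0.0439% with KITLG and 0.267% with LIF, and before adjustment 12.2%, 17.1%, 8.66% and 7.25%. The medians over the 10 genes were -0.17, 0.15, -0.11 and -0.03, against -0.01, 0.04, 0.00 and -0.03 for all probe sets. Mmp7 with FGF2 was at 4.36, 4.79 and 5.55 (difference -0.48, SE 0.65, limma adjusted p = 0.843). With GDNF it was at 5.71, 4.92 and 6.01 (difference 0.16, limma adjusted p = 0.924), and with KITLG at 5.19, 5.55 and 5.09 (difference -0.10, limma adjusted p = 0.984). LIF gave 5.50, 6.59 and 4.77 (difference 0.24, limma adjusted p = 0.962). All 12 of these Mmp7 values lay within the range of the controls.

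Single samples outside the controls were few with these 4 growth factors. Aqp8 was above every control in GDNF samples 1 and 3, at 7.79 and 8.04, and below every control in sample 2, at 6.44. Its differences were 0.20 with FGF2, 0.08 with GDNF, -0.38 with KITLG and 0.32 with LIF, with adjusted p of 0.904, 0.941, 0.864 and 0.906. The water channel thus left the narrow control range (6.84 to 7.78) in 1 or more samples of each. Scgb1c1 was at 8.03, 6.08 and 4.82 with KITLG, a difference of 0.68 (SE 0.60, limma adjusted p = 0.833), and its sample 1 was the highest but 1 of the 38 arrays. In the same sample Mmp7 was at 5.19, close to the control median of 5.22, so the secretoglobin was high there without Mmp7. S100g was at 5.89 in KITLG sample 2, under the lowest control, with a difference of -0.58 (SE 0.59, limma adjusted p = 0.862). Tspan1 was at 4.52 in FGF2 sample 1, also under the lowest control, with a difference of -0.23 (SE 0.28, limma adjusted p = 0.819). Cyp24a1 reached 5.37 in LIF sample 2, with a difference of 0.15 (SE 0.38, limma adjusted p = 0.957).

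**Figure D3:**
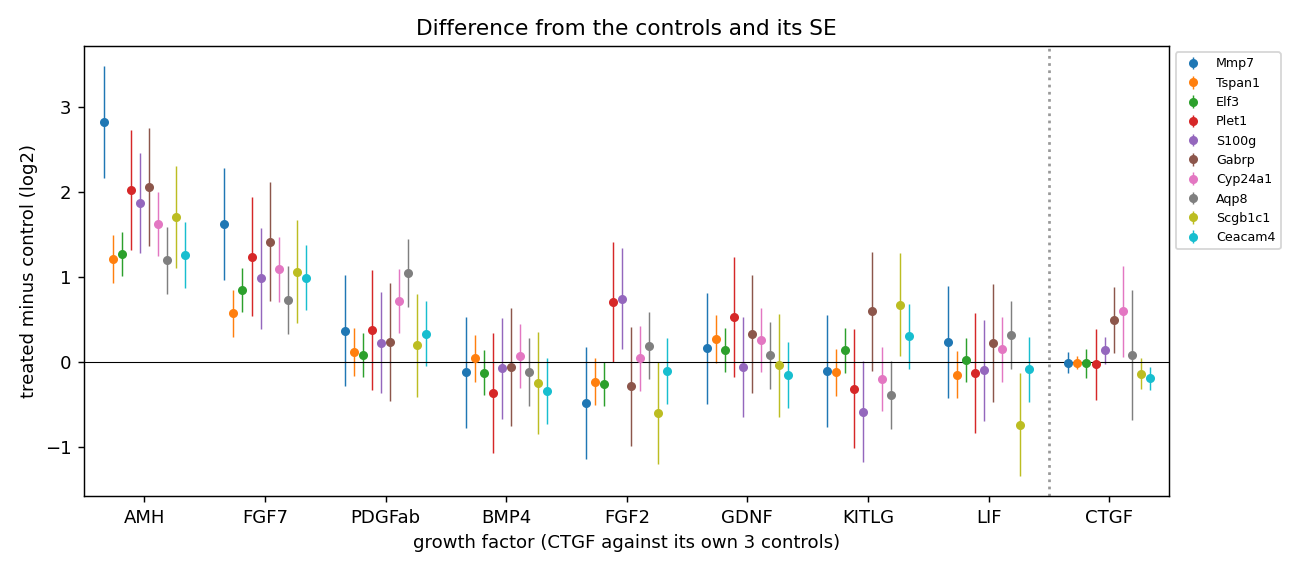
Treated minus control mean (log2, vertical axis) and its SE for each of the 10 genes under each growth factor, with CTGF against its own 3 controls to the right of the dotted line. The AMH values, which chose the genes, lie between 1.20 and 2.82, the FGF7 values between 0.57 and 1.62, and those of the other growth factors between -0.73 and 1.05.

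CTGF (connective tissue growth factor) was studied on arrays that were normalized separately, so its levels are set only against its own 3 controls. No gene had an adjusted or unadjusted p under 0.05 by limma or by the methods' t-test, against 0% and 3.12% of all probe sets, and 3 against 3 samples cannot give an exact permutation p below 0.1. The adjusted p was 1.0 for all 10 genes. Their differences ran from -0.19 to 0.60 with a median of -0.01, against 0.00 for all probe sets. Mmp7 was at 4.22, 4.03 and 3.95 with CTGF and at 3.99, 4.29 and 3.94 in the controls (difference -0.01, SE 0.12, exact permutation p = 1). Cyp24a1 gave the largest difference, 0.60 (SE 0.54, exact permutation p = 0.7), which came from CTGF sample 1 at 6.20 against 4.45, 4.11 and 4.24 in the controls. Gabrp was at 8.26, 7.13 and 6.82, a difference of 0.49 (SE 0.39, exact permutation p = 0.5). Among the rest, Plet1 was at 7.16 in CTGF sample 1 against at most 6.72 in the controls, Aqp8 at 10.54 against at most 10.15, and Elf3 at 4.69 against at most 4.57. S100g, Aqp8, Plet1, Tspan1, Elf3, Scgb1c1 and Ceacam4 differed by 0.14, 0.09, -0.02, -0.01, -0.01, -0.13 and -0.19. Sample 1 with CTGF was above all 3 controls for 7 of the 10 genes, sample 2 for 1 and sample 3 for 0. Set against the control of the same number, 9, 6 and 2 of the 10 genes were higher with CTGF in pairs 1, 2 and 3. The SEs and p-values above leave this pairing out. No share of all probe sets is given for the counts above the 3 controls or within pairs, and nothing is read from them. Mmp7, Elf3, Scgb1c1 and Ceacam4 were dim in both groups, with means of 3.97 to 4.39 against array medians of 6.29 to 6.35. Small differences in these dim genes therefore say little.

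The covariation of the genes was next examined across the 14 untreated controls, where no growth factor differed. Regressed on the level of Mmp7 by limma, 7 of the other 27341 probe sets passed after adjustment (0.0256%, with 1422 at an unadjusted p under 0.05), and 6 of these 7 were among the 9 other genes described here. Plet1 had the highest Pearson r with Mmp7 of all probe sets, 0.92 (rho 0.86, adjusted p = 0.00219). It was followed by Tspan1 at 0.91 (rho 0.84, adjusted p = 0.0153), Elf3 at 0.91 (rho 0.90, adjusted p = 0.0153) and Ceacam4 at 0.90 (rho 0.82, adjusted p = 0.0128). Scgb1c1 at 0.89 (rho 0.85, adjusted p = 0.0128) and Gabrp at 0.86 (rho 0.85, adjusted p = 0.027) ranked 7 and 10. By permutation of the samples the p of r was between 1e-05, the smallest that the permutations can give, and 0.00011 for these 6 genes, and that of rho between 3e-05 and 0.00056. The seventh probe set was Cdkl1, a protein kinase (r 0.90, adjusted p = 0.0128), which is no member of the group. After repeated quantile normalization 7 probe sets passed again, but Gabrp was no longer among them (r 0.84, adjusted p = 0.0618), which left 5 of the 9 genes. Only 0.0475% of all probe sets had an r of 0.85 or more, and the median over all was -0.02.

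Plet1 and Gabrp had the steepest relation to Mmp7, with 1.09 log2 units of Plet1 and 1.14 of Gabrp for each unit of Mmp7. Cyp24a1 (r 0.72, adjusted p = 0.509), Aqp8 (r 0.53, adjusted p = 0.887) and S100g (r 0.44, adjusted p = 1.0) did not pass. Control 9 shows how S100g parted from the rest, since it had the highest S100g of the controls, at 8.40, with Mmp7 at 4.55, Plet1 at 5.80 and Gabrp at 5.81. Controls 10 and 11 held the highest Mmp7 values, 7.34 and 6.70, together with Plet1 at 8.97 and 8.70 and Scgb1c1 at 7.98 and 6.98. At the other end, controls 1, 3 and 7 had Mmp7 at 4.43, 4.29 and 4.37 and Gabrp at 6.26, 5.43 and 5.44. Without controls 10 and 11, the 2 farthest from the median of Mmp7, no probe set passed (781 at an unadjusted p under 0.05), and r for the 6 genes was 0.71 to 0.83, so the calls rest on those 2 controls while the positive relation remained. For S100g r fell to 0.14. Whether these controls shared a litter or a run of cultures is not given in the sources used here, and its part in the covariation was not tested.

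**Figure D4:**
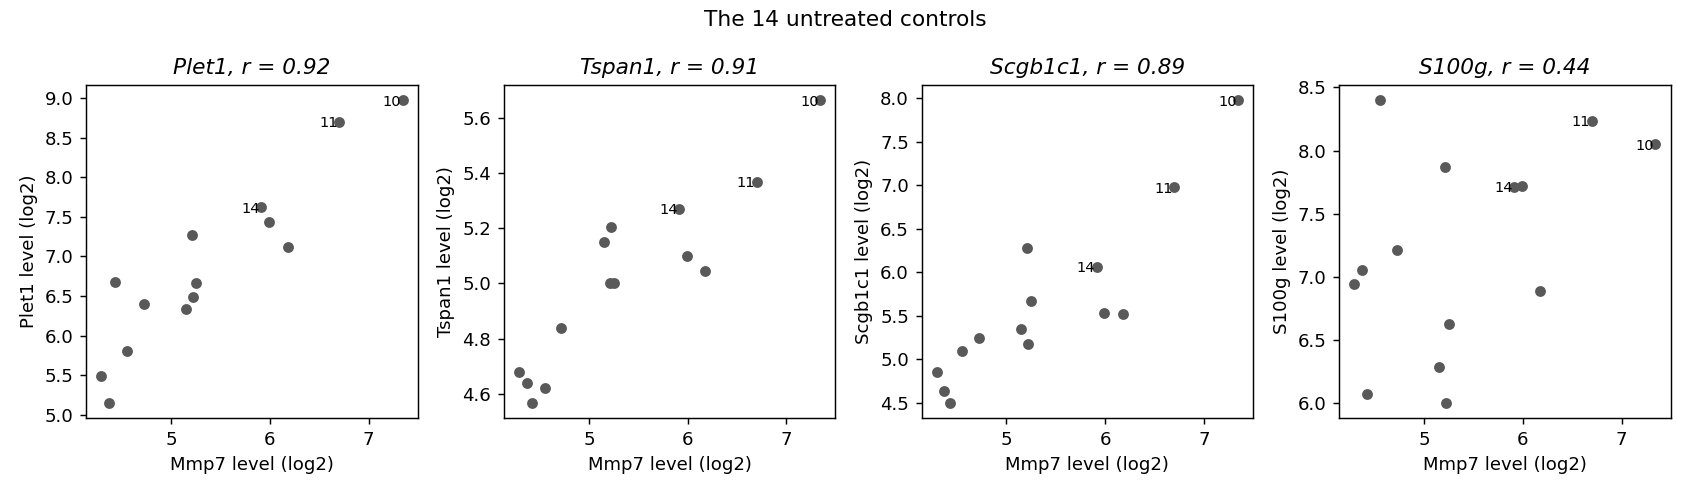
Levels (log2) of Plet1, Tspan1, Scgb1c1 and S100g against Mmp7 in the 14 untreated controls, 1 point per control, with controls 10, 11 and 14 numbered and Pearson r in each title. Plet1, Tspan1 and Scgb1c1 follow Mmp7 with r from 0.89 to 0.92, and S100g does so with r of 0.44.

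Over all 45 pairs of the 10 genes, r across the controls was positive each time, from 0.20 to 0.93 with a median of 0.79, and 22 pairs had an r of 0.8 or more. Without controls 10 and 11 the pairs ran from -0.077 to 0.88 with a median of 0.67. Across all the controls, with S100g and Aqp8 left aside, the other 28 pairs had a median of 0.86 and a minimum of 0.62. With controls 10 and 11 left out, these were 0.75 and 0.45. S100g and Aqp8 were the genes of the group with the lowest r with Mmp7 across the controls. Pairs with S100g had a median of 0.44 across all the controls, and pairs with Aqp8 one of 0.53. With controls 10 and 11 left out, these medians were 0.14 and 0.45. These values are descriptions, since the genes share the same arrays and their choice was made with such values known.

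The same question was put to the 21 samples treated with the 7 growth factors other than AMH, with each growth factor's own mean removed, a comparison added after the data were seen. Regressed on Mmp7 with the group as a term, 60 of 27341 probe sets passed (0.219%, with 2922 at an unadjusted p under 0.05), and 7 of the 9 genes were among them. Tspan1 had the highest r of all probe sets, 0.96 (rho 0.95, adjusted p = 6.87e-06), and Plet1 the next, 0.93 (rho 0.89, adjusted p = 0.00018). S100g, which did not pass in the controls, had an r of 0.88 (rho 0.76, adjusted p = 0.00347) and Cyp24a1 one of 0.83 (rho 0.73, adjusted p = 0.0191). Gabrp was at 0.85 (adjusted p = 0.00962), Elf3 at 0.81 (adjusted p = 0.0375) and Ceacam4 at 0.79 (adjusted p = 0.0471). Aqp8 and Scgb1c1, both at 0.72, did not pass, with adjusted p of 0.112 and 0.115. Plet1, Tspan1, Elf3, Ceacam4 and Gabrp passed in both sets of samples, as did Cdkl1 (r 0.84, adjusted p = 0.0157). Whether the r of S100g differs between controls and treated samples was not tested. The 2 samples farthest from their group mean in Mmp7 were PDGFab sample 1, 2.28 above it, and FGF7 sample 2, 2.06 below it. Without both, r was 0.93 for Tspan1, 0.83 for Plet1, 0.78 for Gabrp, 0.69 for S100g and 0.33 to 0.64 for the other 5 genes. The relations of Ceacam4 at 0.44, which had passed, and of Aqp8 at 0.43 and Scgb1c1 at 0.33 thus rest largely on those samples.

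**Figure D5:**
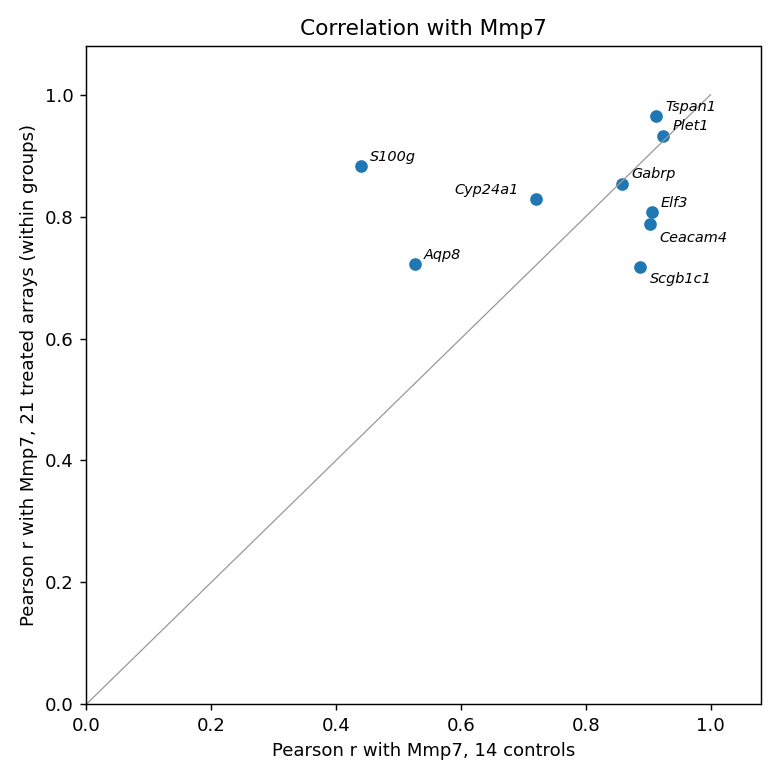
Pearson r with Mmp7 of the other 9 genes across the 14 controls (horizontal) and across 21 treated samples with group means removed (vertical), with the line of equal values in grey. S100g, Aqp8 and Cyp24a1 lie above the line, at 0.88, 0.72 and 0.83 in the treated samples, and Tspan1 and Plet1 slightly above it. Scgb1c1, Ceacam4 and Elf3 lie below it, at 0.72, 0.79 and 0.81, and Gabrp slightly below it, at 0.85.

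Genes of the cell type and gene family lists were looked up in the same regression on Mmp7, in which 0.219% of all probe sets passed. The lists were written with earlier results of these data known, so nothing is read from the share of their genes that passed. Of 220 other measured genes in 16 lists of cell types and gene families, Prss8 (prostasin, a membrane serine protease, r 0.92, adjusted p = 0.00169), Cd24 (a surface glycoprotein, r 0.84, adjusted p = 0.0151) and Ehf (an ETS factor close to Elf3, r 0.80, adjusted p = 0.0445) passed in the 21 treated samples. Prss8 ranked 3 of all probe sets, behind Tspan1 and Plet1. In the controls none of these 3 passed, with r of 0.73, 0.53 and 0.72. Picked after their values were seen, the secreted protease inhibitor Slpi (r 0.86) and the retinol acyltransferase Lrat (r 0.85) were also among the 60. Serinc2 (r 0.90), Adh1c, Ehhadh, Foxp1 and Tmem252 (each r 0.87), also among the 60, had a higher r than either. No single gene symbol was carried by 23 of the 60. For genes outside the group, r without PDGFab sample 1 and FGF7 sample 2 is not given. Across the controls the 12 brighter genes most alike to the mean of the 10 genes, among 8411 candidates, were Gatd1 (r 0.92), Hyal1 (0.85), Sectm1b (0.84), Magt1 (0.84), Emp1 (0.83), Prcp (0.82), Sft2d2 (0.82), Plac8 (0.82), Arf2 (0.82), Pgm1 (0.81), Icmt (0.80) and Slc66a2 (0.80). Without controls 10 and 11, r was 0.43 for Sft2d2, 0.48 for Plac8, 0.50 for Pgm1 and 0.56 for Sectm1b. It was 0.80 for Gatd1 and 0.82 for Icmt and Slc66a2. In the AMH samples, however, Plac8 was 1.09 higher than in the controls and the other 11 differed by -0.09 to 0.41.

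Markers of the epithelia that an ovary preparation could hold were set beside these genes. In the AMH contrast 20 of 26 epithelial junction and keratin genes had higher means, with a median difference of 0.22 against -0.01 for all probe sets, and their mean level was 6.22 to 6.59 in the AMH samples and 5.99 to 6.31 in the controls. The largest differences were those of Cldn4 (a claudin, 1.15), St14 (matriptase, 0.79) and Ehf (0.77). Cldn4 was at 8.21, 6.28 and 5.82 against at most 5.89 in the controls, its difference was 0.43 without AMH sample 1, and its r with the mean of the 10 genes across the controls was 0.13. Across the controls, 4 of the 26 had an r of 0.7 or more with the mean of the 10 genes, namely Cldn7 (0.83), St14 (0.81), Prss8 (0.80) and Ehf (0.75), against 0.731% of all probe sets. Krt8, a keratin of simple epithelia, differed by 0.03 with AMH and had an r of -0.07. Among 18 genes of Müllerian, mesonephric and oviduct epithelium 12 were higher, with a median of 0.05, a mean level of 5.90 to 6.02 with AMH against 5.63 to 5.95 in controls, and the largest differences in Cd24 (1.01), Pgr (progesterone receptor, 0.89) and Lcn2 (lipocalin, 0.74). Apart from Pgr, the 9 measured transcription factors of this list went in both directions with AMH. Pax8 and Sox17 differed by 0.59 and 0.54, Emx2 and Gata3 by -0.38 and -0.29, and Pax2, Hoxa11, Foxa2, Msx2 and Lhx1 by -0.08 to 0.03. Across the controls Sox17 (r 0.79) was the 1 gene of the 18 with an r of 0.7 or more. Cd24, Pgr and Lcn2 had an r of 0.57, 0.10 and 0.02. For Cd24 and Pgr 2 AMH samples each lay above every control, and for Lcn2 none did.

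Of 16 ciliated cell genes 10 were higher, with a median of 0.02, led by Tppp3 (0.58), Ccno (0.38) and Cfap126 (0.35), and their mean level was 5.75 to 5.90 with AMH and 5.54 to 5.88 in the controls. Surface epithelium and mesothelium genes went the other way, since 2 of 14 were higher and the median was -0.19, with Lhx9 at -0.56, Krt19 at -0.43 and Aldh1a1 at 0.35. Their mean level was 7.99 to 8.25 with AMH and 8.02 to 8.84 in the controls, and their median r with the 10 genes was -0.24. A lower median of these surface genes was not particular to AMH. Against the same 14 controls it was -0.24 with FGF7, -0.14 with BMP4, -0.13 with GDNF, -0.12 with FGF2 and -0.12 with PDGFab. With KITLG it was 0.28 and with LIF 0.04. In FGF7 the mean level of the junction and keratin genes was 6.11 to 6.47, that of duct genes 5.74 to 5.96 and that of surface epithelium genes 7.99 to 8.17. In PDGFab these were 6.07 to 6.17, 5.72 to 5.94 and 8.06 to 8.29. Array levels have no true 0, so an absent marker cannot be told from a dim one. The part of other cell types in the levels of the 10 genes was not tested.

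Other genes of the same families and pathways had smaller differences, Ehf and Ceacam1 among the larger ones. Of 23 other metalloproteinase and inhibitor genes, 8 had higher means with AMH, with a median of -0.09 and extremes of -0.34 for Mmp15, -0.31 for Mmp9 and 0.25 for Timp1. Of 15 other vitamin D genes 4 were higher, with a median of -0.04, and Vdr, the vitamin D receptor, differed by -0.07. The largest were Lrp2 (-0.32), Rxra (-0.30) and Cyp27a1 (0.24). The 11 other aquaporins, 12 other GABA-A subunits, 12 other S100 genes and 16 other tetraspanins had medians of 0.02, 0.05, 0.04 and 0.01. Their extremes were Aqp1 at 0.18, Gabra4 at 0.26, S100a16 at 0.30 and Tspan4 at 0.32. Ceacam1, an adhesion molecule of epithelia, was 0.67 higher and above every control in all 3 AMH samples, while the other 9 Ceacam and secretoglobin genes were closer to the controls (largest difference -0.13, Scgb3a1), and the list had a median of -0.02. The 8 other ETS factors had a median of 0.09, and their extreme was Ehf at 0.77, above every control in 2 of the 3 AMH samples. Of the 47 non-member genes that hold the 3 largest differences of each list, 24 moved by over 1.5 times when 1 of the 3 AMH samples was left out, and the difference of Gabra4 turned to -0.099 without sample 1. The 16 receptor, SMAD and Id genes of AMH and BMP signalling had a median of -0.02, between Smad7 at -0.31 and Id3 at 0.27.

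Genes of the main ovarian cell types were also examined in the AMH contrast. The mean level of oocyte genes was 9.42 to 9.62 with AMH and 7.94 to 9.81 in the controls. Pregranulosa genes were at 7.81 to 8.29 against 7.75 to 8.36, and stroma genes at 10.61 to 10.73 against 10.06 to 10.65. The differences of single genes, given next, were 0.057 for Zp1 without AMH sample 3 and 0.13 for Bmp15 without sample 1. Oocyte genes had a median of 0.26 (7 of 9 higher, with Gdf9 at 0.56, Bmp15 at 0.52 and Zp1 at 0.49), pregranulosa genes one of -0.17 (2 of 10 higher, with Irx3 at -0.43, Gata4 at -0.32 and Nr0b1 at 0.30) and stroma genes one of 0.17 (8 of 8 higher, with Col1a2 at 0.35, Pdgfra at 0.28 and Lum at 0.24). In the 8 comparisons tested by limma, list genes outside the group passed after adjustment in 3 cases, all of them higher: Upk1b and Tspan4 with FGF2 and Wnt4 with LIF.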

How the data were processed

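The deposited values are log2 expression levels. Per the labels and the study's methods, the authors made them from the scans in Partek by RMA, adjusted for probe GC content, in 1 run for the 38 arrays and a separate run for the 6 CTGF arrays. RMA compresses low signals, and Mmp7, Tspan1, Elf3, Cyp24a1, Scgb1c1 and Ceacam4 had means below 5.98, the median over probe sets. Array medians were 5.93 to 6.01 and 6.29 to 6.35. The number of arrays limits the precision. The values were used as deposited.

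Each growth factor was compared with its controls by limma 3.58.1 in R 4.3.3 (lmFit and eBayes, all 38 or all 6 arrays in 1 fit), with Benjamini-Hochberg adjustment over 27342 probe sets at 0.05. Exact two-sided permutation tests used 680 splits of 3 against 14 (smallest p 0.00147) and 20 splits of 3 against 3. Across the 14 controls every probe set was regressed on Mmp7 by limma, and r and rho were tested with 100000 permutations. As nothing in the labels ties a well to an animal, p-values measure the spread between wells. Other tools were Python 3.11.15, numpy 2.4.6, pandas 2.3.3 and scipy 1.17.1, and the fits were tested on simulated data.

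The 10 genes, the 16 gene lists (written from general knowledge) and the tests were chosen with earlier results of these data known, and the covariation is no independent support for the choice. Probe sets were named by the annotation given for this array, the brightest per gene. Outside AMH a gene was named where its unadjusted limma p was under 0.05 or 1 sample lay outside the controls, and Mmp7 always. List genes were named where they passed, or, with AMH, for the 3 largest differences of a list. A few others (Krt8, the duct transcription factors, Vdr, Cldn7, Prss8) were named after their values were seen. Replicate numbers pair the CTGF samples, by deviations from the group means (r 0.623 to 0.842 for the same number, 3 of 3 best with their own number). Among the others 3 of 24 were best with their own number. These were sample 1 of FGF2, KITLG and LIF, with control 1 (r 0.74, 0.61 and 0.69). Sample 1 of AMH, BMP4, GDNF and PDGFab was best with control 2 (r 0.78, 0.51, 0.40 and 0.36), and FGF7 sample 1 with control 10 (r 0.14). Whether such samples shared a run of cultures was not tested. Alternatives were a fit without the other growth factors, a block for the replicate number, repeated quantile normalization, the dimmest probe sets left out, the methods' t-test, each replicate left out, and controls 10 and 11 left out.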

Additional observations from a re-analysis of the deposited data

How the results depend on the processing

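The count of the 10 genes past the adjusted threshold stayed at 0 with BMP4, FGF2, GDNF, KITLG, LIF, PDGFab and CTGF under every alternative run, and with FGF7 it was 0 to 1 as single replicates were left out, the 1 being Elf3 without FGF7 replicate 2. Genes with all 3 AMH samples above the highest control numbered 8 without controls 10 and 11, against 0.285% of all probe sets. With the replicate block, which keeps controls 1 to 3 only, the number was 10. Those controls were low in the mean of the 10 genes, at -0.77, -0.33 and -0.95 SD units. No share of all probe sets is given for that setting, and nothing is read from these counts, since AMH chose the genes. Probe sets following Mmp7 numbered 0 without controls 10 and 11, 2 with the dimmest probe sets left out (4 of the 9 genes are then tested), 7 after repeated quantile normalization (5 of the 9 genes, Gabrp being lost) and 60 in the 21 treated samples. Among directions, no gene that changed sign was past the threshold in either setting. With the replicate block, differences turned positive for Mmp7 (0.64), Elf3 (0.19), S100g (0.71) and Ceacam4 (0.018) with BMP4, for Mmp7 (0.28) with FGF2, and for Mmp7 (0.65) and S100g (0.21) with KITLG. In the CTGF set the replicate block changed no call. Without controls 10 and 11 they turned positive for Mmp7 (0.15) and S100g (0.083) with BMP4 and for Mmp7 (0.17) with KITLG. Repeated quantile normalization turned Mmp7 (0.0034), Tspan1 (0.013) and Elf3 (0.0038) positive with CTGF.

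Leaving out single replicates moved BMP4 differences between -0.97 and 0.35 for Mmp7, -0.33 and 0.24 for Tspan1, -0.29 and 0.016 for Elf3, -0.86 and 0.45 for S100g, -0.64 and 0.16 for Aqp8, and -0.55 and 0.028 for Ceacam4. With FGF7 Aqp8 ran from -0.011 to 1.45. With GDNF Mmp7 ran from -0.069 to 0.48 and Aqp8 from -0.23 to 0.57, with KITLG Scgb1c1 from -0.18 to 1.42, and with LIF Mmp7 from -0.25 to 0.66 and Cyp24a1 from -0.17 to 0.40. PDGFab ranges were -0.77 to 1.13 for Mmp7, -0.32 to 0.39 for Tspan1, -0.71 to 1.00 for Plet1, -0.86 to 0.85 for S100g, -0.60 to 1.10 for Gabrp and -0.15 to 0.59 for Ceacam4. CTGF ranges were -0.083 to 0.10 for Mmp7, -0.052 to 0.040 for Tspan1, -0.19 to 0.10 for Elf3, -0.45 to 0.36 for Plet1, -0.072 to 0.98 for Cyp24a1, -0.64 to 0.66 for Aqp8 and -0.24 to 0.032 for Scgb1c1. The cause of these changes was not tested beyond the sample or control left out. As each gene has 1 probe set, averaging probe sets gave no separate value, and 6 of the 10 genes are among the dimmest probe sets and have no value where those are left out.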
